A study of Mus musculus with 4 samples.

Results

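Osteopontin is the secreted phosphoprotein encoded by Spp1. Spp1 and the genes of 6 receptor chains, Cd44, Itgav, Itgb1, Itgb3, Itgb5 and Itga9, were followed through single cells of the injured mouse spinal cord. The 7 genes were chosen by symbol, and all 7 were found among the 53647 genes of the count tables. The cells came from a 2 mm segment of cord with the lesion, from aged C57BL/6J mice, an inbred strain, taken 28 days after spinal cord injury. Animals had received either an antibody to CD8, which marks cytotoxic T cells (Anti-CD8, 2 libraries), or an IgG antibody (IgG, 2 libraries). Age and injury were common to both groups, and no young or uninjured cord was analysed here. The tissue was dissociated by enzymes and cleared of myelin with beads, so cells that survive this poorly may be missing. The age in months and the number of animals behind a library were not given in the sources used here, and p-values reflect the spread among the 4 libraries alone.

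Osteopontin carries an RGD motif that is bound by the integrins αvβ1, αvβ3 and αvβ5, in which the Itgav chain pairs with the Itgb1, Itgb3 or Itgb5 chain. Cleavage by thrombin exposes a neighbouring site for α9β1, the pair of Itga9 with Itgb1. CD44 is a surface glycoprotein best known as the receptor of hyaluronan, and it also binds osteopontin. Resting microglia make little osteopontin, and microglia and macrophages that clear myelin and lipid are known for making much of it.

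The stretch upstream of Spp1 is shown because this gene differed so widely between myeloid states that share a lineage. The 250 bases before the RefSeq transcription start lie on the plus strand at chr5:104434861-104435110 of GRCm38.p6, whereas the counts were made on GRCm39. Capitals mark a RUNX core (ACCACA), an ETS core (GGAAGT) and a CCAAT box that reads on the other strand.
Spp1 promoter: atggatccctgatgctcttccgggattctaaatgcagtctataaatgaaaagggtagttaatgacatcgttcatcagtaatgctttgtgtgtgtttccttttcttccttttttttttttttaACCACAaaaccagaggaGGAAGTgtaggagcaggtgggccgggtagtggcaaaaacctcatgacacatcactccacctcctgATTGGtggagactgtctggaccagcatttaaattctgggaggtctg
The RUNX core starts 128 bases before the transcription start, the ETS core 111 bases and the CCAAT box 46 bases before it, and these 3 do not overlap. Both strands were searched. Of 32817 RefSeq promoters of the same length, 14.0% held the RUNX core, 19.7% the ETS core and 33.8% the CCAAT box (CCAAT). An E-box (CANNTG) was matched 98 bases before the start, and 66.2% of the promoters held one. The letters of an AP-1 site (TGANTCA), held by 6.75% of the promoters, are not in this window.

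The libraries held 7481 and 7816 cells in Anti-CD8, against 6108 and 6290 in IgG, after filtering and doublet removal. Before these steps, all barcodes of a library together held 152457679 to 170539226 UMIs. A UMI (unique molecular identifier) counts 1 captured RNA molecule, and levels are given in CPM, as UMIs per 1000000 UMIs of a cell class. The median cell had 17284 and 18366 UMIs in Anti-CD8, against 21950.5 and 20469.5 in IgG. Pairs of libraries shared 7 to 23 cell barcodes. Cells fell into 28 clusters, formed without the 7 genes and named from marker lists, so that each name stands for a likeness (T-cell-like, macrophage-like and so on). Names rest on thresholds set after the clusters were seen, and Spp1 is among the leading genes of 2 clusters. Cd8a, the gene of the antibody's target, stood in T cells at 174 and 96.3 CPM in Anti-CD8, against 335 and 236 in IgG, with no overlap. Interferon myeloid cells were 0.481% and 1.25% of the cells in Anti-CD8, against 6.83% and 0.763% in IgG, so IgG replicate 1 stood apart in that state.

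Spp1 was a transcript of the myeloid lineage, which held 99.2% and 98.4% of all Spp1 UMIs in Anti-CD8, against 99.1% and 99.2% in IgG. Foam-type cells, led by Mmp12, Gpnmb and the lipid carrier Fabp4, had 16735 and 14011 in Anti-CD8, against 13080.1 and 17155 in IgG. Activated phagocytes, led by Clec4e, Postn and the lipase Lpl, had 13451 and 12963 in Anti-CD8, against 9731 and 14636 in IgG. These 2 states overlapped each other. Homeostatic cells, which express the resting microglia genes P2ry12 and Siglech, had 188 and 297 in Anti-CD8, against 211 and 227 in IgG. The lowest activated value, in IgG replicate 1, was still far above the highest homeostatic value, in Anti-CD8 replicate 2.

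**Figure D1:**
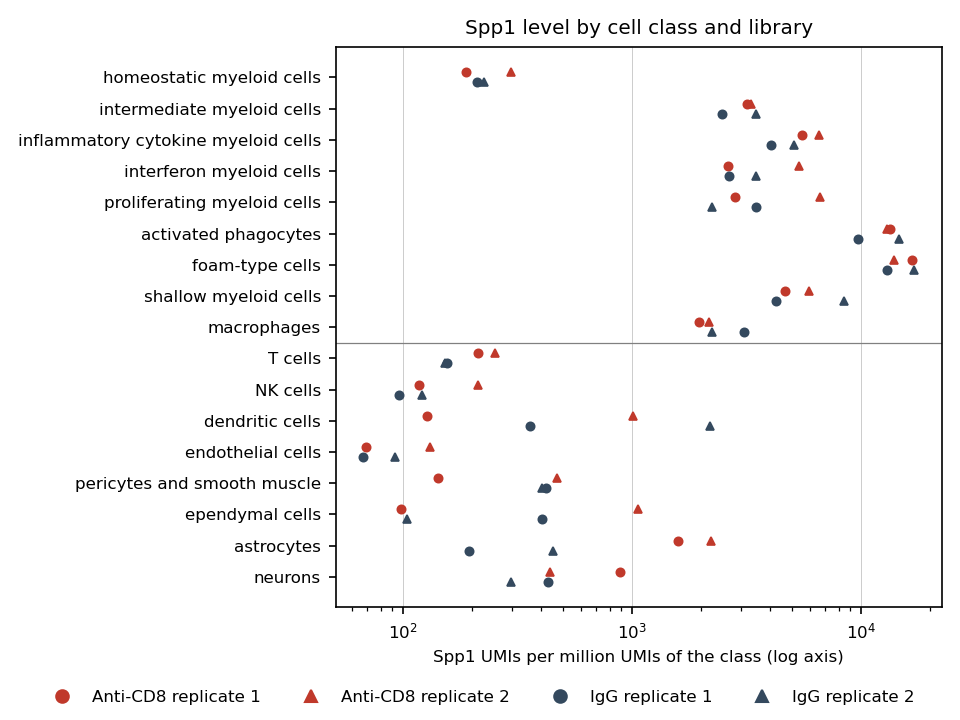
Spp1 level in each cell class or state, in CPM of the class on a log axis, with a symbol for each library. Foam-type cells and activated phagocytes lie highest, homeostatic myeloid cells lie among the non-myeloid classes, and Anti-CD8 and IgG symbols overlap in most states.

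The other myeloid states lay between these ends. Shallow myeloid cells, a cluster of few UMIs per cell, averaged 5815 ± 1887 (SD, n = 4 libraries). Inflammatory cytokine cells, led by Il12b, Cxcl2 and Tnf, averaged 5321 ± 1050.4. Proliferating cells averaged 3792 ± 1967, interferon cells 3541 ± 1295, intermediate cells 3107 ± 445 and macrophages, led by H2-Eb1 and Mrc1, 2366 ± 489.6. The library values of each of these states overlapped those of the next. The intermediate class was mixed. Its cluster led by Cdo1 and Pla2g7 had 7093 and 6451 in Anti-CD8, against 5553 and 7199.7 in IgG, and its cluster whose leading genes include Il1b and Gpr84 had 1983 and 2120.2 in Anti-CD8, against 1524 and 2658 in IgG.

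A small part of the cells supplied most of the Spp1 transcript. Activated phagocytes made up 9.10% and 8.94% of the cells in Anti-CD8, against 9.33% and 9.35% in IgG. They held 36.1% and 34.1% of the Spp1 UMIs in Anti-CD8, against 29.0% and 37.7% in IgG. Foam-type cells made up 6.80% and 6.17% of the cells in Anti-CD8, against 8.96% and 6.52% in IgG, and they held 35.0% and 25.8% of the Spp1 UMIs in Anti-CD8, against 38.4% and 31.2% in IgG. The shares of cells did not pass a test, with log2 folds of -0.05 (SE 0.13, edgeR adjusted p = 0.853) for activated phagocytes, -0.25 (SE 0.23, edgeR adjusted p = 0.755) for foam-type cells and 0.30 (SE 0.11, edgeR adjusted p = 0.521) for homeostatic cells. The homeostatic share passed without IgG replicate 2 (0.39, edgeR adjusted p = 0.0264), and the fold of the foam-type share was -0.0073 without IgG replicate 1 and -0.47 without IgG replicate 2. Homeostatic cells made up 17.4% and 16.0% of the cells in Anti-CD8, against 12.7% and 14.5% in IgG, and they held 0.450% to 0.704% of the Spp1 UMIs over the 4 libraries. Of the 1% of cells with the most Spp1 per UMI, foam-type cells were 54.1% and 33.3% in Anti-CD8, against 57.4% and 35.5% in IgG. Activated phagocytes were 33.8% and 41.0% in Anti-CD8, against 29.5% and 40.3% in IgG.

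**Figure D2:**
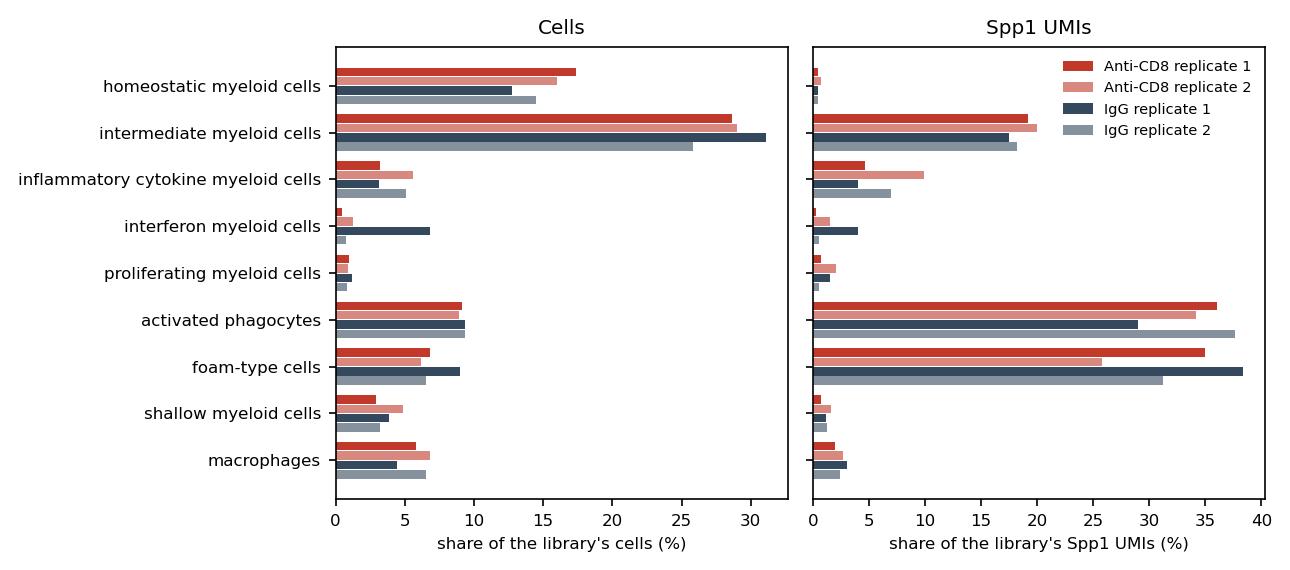
Share of the cells (left) and of the Spp1 UMIs (right) of each library that fall in each myeloid state, in percent, with a bar for each library. Activated phagocytes and foam-type cells take a far larger share of Spp1 UMIs than of cells, and homeostatic cells the reverse.

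Spp1 was unevenly spread inside a state as well. The median foam-type cell had 102 and 81.5 Spp1 UMIs per 10000 UMIs in Anti-CD8, against 79.1 and 118 in IgG. The 10% of foam-type cells with the most Spp1 held 38.2% and 40.7% of the Spp1 UMIs of the class in Anti-CD8, against 38.7% and 35.8% in IgG. The median homeostatic cell had 0.742 and 1.03 in Anti-CD8, against 0.927 and 1.04 in IgG, and there the top 10% held 64.8% and 66.0% in Anti-CD8, against 61.4% and 60.3% in IgG. No Spp1 UMI was found in 33.9% and 22.4% of homeostatic cells in Anti-CD8, against 23.4% and 19.2% in IgG. For foam-type cells these shares were 0.393% and 0.622% in Anti-CD8, against 0.548% and 0.244% in IgG.

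In droplet data, free RNA can put some Spp1 UMIs into cells that do not make it. Cells were therefore also thinned to 2000 UMIs each. Cells with fewer UMIs were left out of all thinned shares, which kept 26521 of 27695 cells. With this thinning, a Spp1 UMI was found in 16.0% of endothelial cells in Anti-CD8 and 16.1% in IgG. The share was 23.9% in Anti-CD8 and 24.2% in IgG for homeostatic cells and 25.8% in Anti-CD8 and 22.7% in IgG for T cells. It was 58.9% in Anti-CD8 and 56.5% in IgG for macrophages, 95.01% in Anti-CD8 and 93.1% in IgG for activated phagocytes and 95.2% in Anti-CD8 and 96.0% in IgG for foam-type cells. The median cell of a library had 13755 to 17821 UMIs in endothelial cells, 14191 to 16859.5 in homeostatic cells and 5966 to 7262 in T cells. Without thinning, the mean share over libraries was 67.7% for endothelial cells, 75.3% for homeostatic cells, 54.8% for T cells and 99.5% for foam-type cells. The ratio of Spp1 to the sum of 10 microglia markers was 1.07 to 1.47 in T cells. Over all cells of a library it was 1.18 to 1.58. It was 3.8 to 5.34 in foam-type cells, 0.0264 to 0.0477 in homeostatic cells, 0.429 to 0.788 in endothelial cells and 0.330 to 3.46 in ependymal cells. The source of the Spp1 UMIs outside the myeloid lineage was not tested.

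The genes whose levels followed Spp1 most closely were found by Pearson correlation of log2 levels, as a description over classes that share libraries. Over 16 classes and states they were Mmp12 (0.946), a macrophage elastase, Apoc4 (0.944), an apolipoprotein, Igf1 (0.943), a growth factor, Msr1 (0.916), a scavenger receptor, and Cxcl14 (0.909), a chemokine. Over the 9 myeloid states alone they were Cxcl14 (0.974), Igf1 (0.964), Lrpap1 (0.951), Tpi1 (0.945) and Capg (0.939). Of the receptor chains, Itgb5 had the highest value over all classes (0.764), yet over the myeloid states alone its value was -0.366. Itga9 had -0.672 over the myeloid states, the lowest of the 6 chains.

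The antibody gave no call on Spp1 in the 9 myeloid states. edgeR's quasi-likelihood test on counts summed per library made 0 calls at an adjusted p under 0.05 and 2 at an unadjusted p under 0.05, and DESeq2 made 0 and 0. Those 2 were in inflammatory cytokine cells and macrophages. There 945 of 12324 and 650 of 12373 genes had an unadjusted edgeR p under 0.05. Of all genes tested, the share called was 0.0735% in foam-type cells, 0.0576% in activated phagocytes, 0.0344% in homeostatic cells, 0.144% in intermediate cells, 0.00808% in macrophages, 0.353% in proliferating cells, and 0% in inflammatory cytokine, interferon and shallow cells alike. The Spp1 fold, Anti-CD8 over IgG, was -0.02 on the log2 scale in foam-type cells (SE 0.12, edgeR adjusted p = 0.986), with values that overlapped. The log2 fold in activated phagocytes was 0.08 (SE 0.14, edgeR adjusted p = 0.945), but 0.42 (edgeR adjusted p = 2.2e-04) without IgG replicate 2 and -0.20 without IgG replicate 1. In homeostatic cells it was 0.13 (SE 0.15, edgeR adjusted p = 0.949), but 0.42 (edgeR adjusted p = 0.0158) without Anti-CD8 replicate 1 and -0.25 with Anti-CD8 replicate 2 left out. In intermediate cells it was 0.07, but 0.35 (edgeR adjusted p = 0.00521) without IgG replicate 2 and -0.15 without IgG replicate 1. The sign in these 3 states thus turned on single libraries, and a group cut to 1 library is assumed to vary like the other.

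Among the myeloid states, the Spp1 values of the groups did not overlap in inflammatory cytokine cells and macrophages. Exact permutation gives a full separation of 2 libraries from 2 a p of 0.333, so such a separation is frequent without any effect. The share of all genes that separate in this way was not counted. Inflammatory cytokine cells had 5523 and 6602 in Anti-CD8, against 4066 and 5092 in IgG (log2 fold 0.36, SE 0.11, edgeR adjusted p = 0.523). The fold passed without IgG replicate 2 (0.54, edgeR adjusted p = 1.9e-05) and without Anti-CD8 replicate 1 (0.49, edgeR adjusted p = 3.1e-09), and it was 0.15 where cells were clustered with the 7 genes included. Macrophages had 1971 and 2179 in Anti-CD8, against 3080.4 and 2234 in IgG (log2 fold -0.41, SE 0.14, edgeR adjusted p = 0.941), and the fold passed without IgG replicate 2 (-0.65, edgeR adjusted p = 0.0079) and was -0.13 without IgG replicate 1. The fold in macrophages minus that in inflammatory cytokine cells was -0.76 on the log2 scale (SE 0.18, edgeR adjusted p = 0.471, with 0.00757% of 13202 genes called). The fold in macrophages minus that in homeostatic cells was -0.49 on the log2 scale (SE 0.17, edgeR adjusted p = 0.918, with 0.00695% of 14383 genes called). The fold in foam-type cells minus that in homeostatic cells was -0.11 on the log2 scale (SE 0.18, edgeR adjusted p = 0.984, with 0% of 14843 genes called). That difference was negative with Anti-CD8 replicate 1 left out (-0.58, edgeR adjusted p = 7.3e-04) and positive with Anti-CD8 replicate 2 left out (0.36, edgeR adjusted p = 0.00321), and it was -0.26 (edgeR adjusted p = 3.8e-05) without IgG replicate 1.

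The smallest states varied most. Proliferating cells numbered 72 and 69 in Anti-CD8, against 72 and 54 in IgG. They had 2815 and 6641 CPM of Spp1 in Anti-CD8, against 3478 and 2233 in IgG, with a log2 fold of 0.71 (SE 0.33, edgeR adjusted p = 0.666). That fold was 1.12 (edgeR adjusted p = 1.8e-15) without IgG replicate 1, 0.39 (edgeR adjusted p = 0.0431) without IgG replicate 2 and -0.05 without Anti-CD8 replicate 2. Interferon cells had 2634 and 5393 in Anti-CD8, against 2661 and 3478 in IgG, with a log2 fold of 0.35 that was 0.78 (edgeR adjusted p = 8.3e-04) without Anti-CD8 replicate 1 and -0.28 with Anti-CD8 replicate 2 left out. Over all cells of a library Spp1 stood at 5083 and 5219 in Anti-CD8, against 4442 and 5596 in IgG, and the groups overlapped.

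Classes outside the myeloid lineage had Spp1 levels that scattered between libraries. Dendritic cells had 128 and 1014 in Anti-CD8, against 361 and 2196 in IgG, and fibroblasts, with 16 and 14 cells in Anti-CD8, against 5 and 11 in IgG, had 689 and 6756 in Anti-CD8, against 3171 and 239 in IgG. Ependymal cells, which line the central canal, had 98.2 and 1059 in Anti-CD8, against 404 and 104 in IgG, and pericytes and smooth muscle had 143 and 473 in Anti-CD8, against 421 and 405 in IgG. Endothelial cells had 69.3 and 132 in Anti-CD8, against 67.0 and 92.0 in IgG. NK cells had 118 and 213 in Anti-CD8, against 95.7 and 121 in IgG. The groups overlapped in each of these 6 classes. Single cells carried much of the dendritic and ependymal values. In dendritic cells the top cell held 18.8% and 88.9% of the Spp1 UMIs in Anti-CD8, against 79.1% and 93.8% in IgG. Without it they had 108 and 120 in Anti-CD8, against 78.4 and 148 in IgG. In ependymal cells the top cell held 22.7% and 90.0% in Anti-CD8, against 85.9% and 31.8% in IgG. Without it they had 76.1 and 108 in Anti-CD8, against 58.3 and 72.1 in IgG, which did not overlap.

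Outside the myeloid lineage, Spp1 values of the groups did not overlap in T cells, neurons and astrocytes, and none passed. As in the myeloid states, such a separation is frequent without any effect. T cells had 213 and 252 in Anti-CD8, against 156 and 153 in IgG (log2 fold 0.56, SE 0.13, edgeR adjusted p = 0.0742), beside microglia markers that summed to 145 and 200.02 in Anti-CD8, against 146 and 127 in IgG. A few cells carried these values, and in Anti-CD8 replicate 1 a single T cell held 211 of 535 Spp1 UMIs. With the cell of most Spp1 UMIs left out of each library, T cells had 129 and 227 in Anti-CD8, against 117 and 138 in IgG, and the groups overlapped (log2 fold 0.44, edgeR adjusted p = 0.469). Without doublet removal the T cell fold turned to -0.15, edgeR adjusted p = 0.926. It passed without IgG replicate 1 (0.59, edgeR adjusted p = 0.0317) and without Anti-CD8 replicate 1 (0.67, edgeR adjusted p = 0.0491).

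The Spp1 fold in macrophages minus that in T cells was -0.93 on the log2 scale (SE 0.14, edgeR adjusted p = 0.011, with 0.393% of 13481 genes called). That difference no longer passed with the top cells left out (-0.73, edgeR adjusted p = 0.215) or without doublet removal (-0.23, edgeR adjusted p = 0.792). T cells with a UMI of Cd8a or Cd8b1 had 318 and 346 in Anti-CD8, against 162 and 143 in IgG (log2 fold 1.13, SE 0.15, edgeR adjusted p = 0.0685), and those without had 129.7 and 198 in Anti-CD8, against 119 and 181 in IgG. The same single cell held 59.9% of the Spp1 UMIs of the T cells with a CD8 UMI in Anti-CD8 replicate 1, and without the top cell of each library these had 129 and 301 in Anti-CD8, against 116 and 123 in IgG. Neurons had 892 and 437 in Anti-CD8, against 431 and 296 in IgG (log2 fold 0.84, SE 0.29, edgeR adjusted p = 0.282), and neurons with at most 3 UMIs of the microglia markers had 132 and 153 in Anti-CD8, against 52.8 and 81.0 in IgG (log2 fold 1.04, SE 0.22, edgeR adjusted p = 0.0719). In IgG replicate 1 a single neuron held 965 of 1090 Spp1 UMIs, and without the top cell of each library neurons had 647 and 302 in Anti-CD8, against 51.4 and 190.3 in IgG (log2 fold 1.91, edgeR adjusted p = 0.17). The neuron fold was 0.46 without doublet removal and 0.28 without Anti-CD8 replicate 1, and it passed without IgG replicate 1 (1.12, edgeR adjusted p = 0.0374). Astrocytes had 1585 and 2222 in Anti-CD8, against 195 and 454 in IgG (log2 fold 2.45, SE 0.58, edgeR adjusted p = 0.999) on 56 and 126 cells in Anti-CD8, against 20 and 49 in IgG, beside microglia markers at 736 and 1454 in Anti-CD8, against 1308 and 599.7 in IgG. Without doublet removal the astrocyte fold turned to -0.46, edgeR adjusted p = 0.985, and a single astrocyte held 67.2% of the Spp1 UMIs of the class in Anti-CD8 replicate 1. Without the top cell of each library astrocytes had 549 and 1771 in Anti-CD8, against 131 and 240 in IgG, still with no overlap. Astrocytes with at most 3 UMIs of the microglia markers had 326 and 765 in Anti-CD8, against 102 and 146 in IgG. These numbered 45 and 64 in Anti-CD8, against 16 and 39 in IgG, and were not tested. The part of microglial RNA in these values was not tested.

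The receptor chains each had a pattern of their own. Cd44 averaged 313 ± 31.9 CPM in macrophages (SD, n = 4 libraries), 281 ± 19.3 in activated phagocytes and 247 ± 22.8 in inflammatory cytokine cells. In foam-type cells, where Spp1 was highest, Cd44 averaged 179.7 ± 9.59, and in homeostatic cells 154 ± 17.2. T cells had 159.7 ± 19.0, and their cluster led by Trdc, Icos and Il17a had 320.1 ± 60.0. Endothelial cells had 4.504 ± 2.24 and pericytes and smooth muscle 16.7 ± 8.65. The highest level, 1651 ± 408, was that of neutrophils, which numbered 5 and 6 in Anti-CD8, against 1 and 4 in IgG.

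Itgb5, the β5 chain, ran through all myeloid states. It averaged 654 ± 28.2 in homeostatic cells, 645 ± 18.9 in intermediate cells, 548 ± 11.8 in activated phagocytes, 541 ± 8.05 in foam-type cells and 429 ± 8.49 in macrophages. Pericytes and smooth muscle had 157 ± 3.95, endothelial cells 21.4 ± 3.11 and T cells 14.99 ± 3.32. Itgav, the αv chain, was found across lineages, with 245 ± 36.8 in astrocytes, 196 ± 27.4 in inflammatory cytokine cells, 146 ± 20.9 in T cells, 143 ± 5.48 in homeostatic cells, 108 ± 5.47 in foam-type cells and 27.4 ± 3.78 in endothelial cells. T cells and homeostatic cells did not differ in Itgav beyond their spread.

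Itgb1, the β1 chain that many integrins share, was highest in pericytes and smooth muscle, at 729 ± 53.1, and in NK cells, at 593 ± 221, which overlapped. Endothelial cells had 429 ± 16.9 and T cells 425 ± 63.0, again within each other's spread. Foam-type cells had 214 ± 12.6 and homeostatic cells 211 ± 11.97. Itgb3, the β3 chain, was highest in lymphocytes, with 123 ± 35.4 in NK cells, which numbered 70 and 106 in Anti-CD8, against 14 and 27 in IgG, and 78.0 ± 39.7 in T cells. NK and T cells overlapped. Homeostatic cells had 14.5 ± 0.460, foam-type cells 6.21 ± 1.61 and macrophages 0.904 ± 0.396. Itga9, the α9 chain, averaged 54.5 ± 7.88 in macrophages and 46.5 ± 3.64 in homeostatic cells, against 14.8 ± 3.61 in activated phagocytes and 7.01 ± 1.03 in foam-type cells. Astrocytes had 95.05 ± 81.3, with libraries from 9.25 to 201, and T cells 0.795 ± 0.575.

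**Figure D3:**
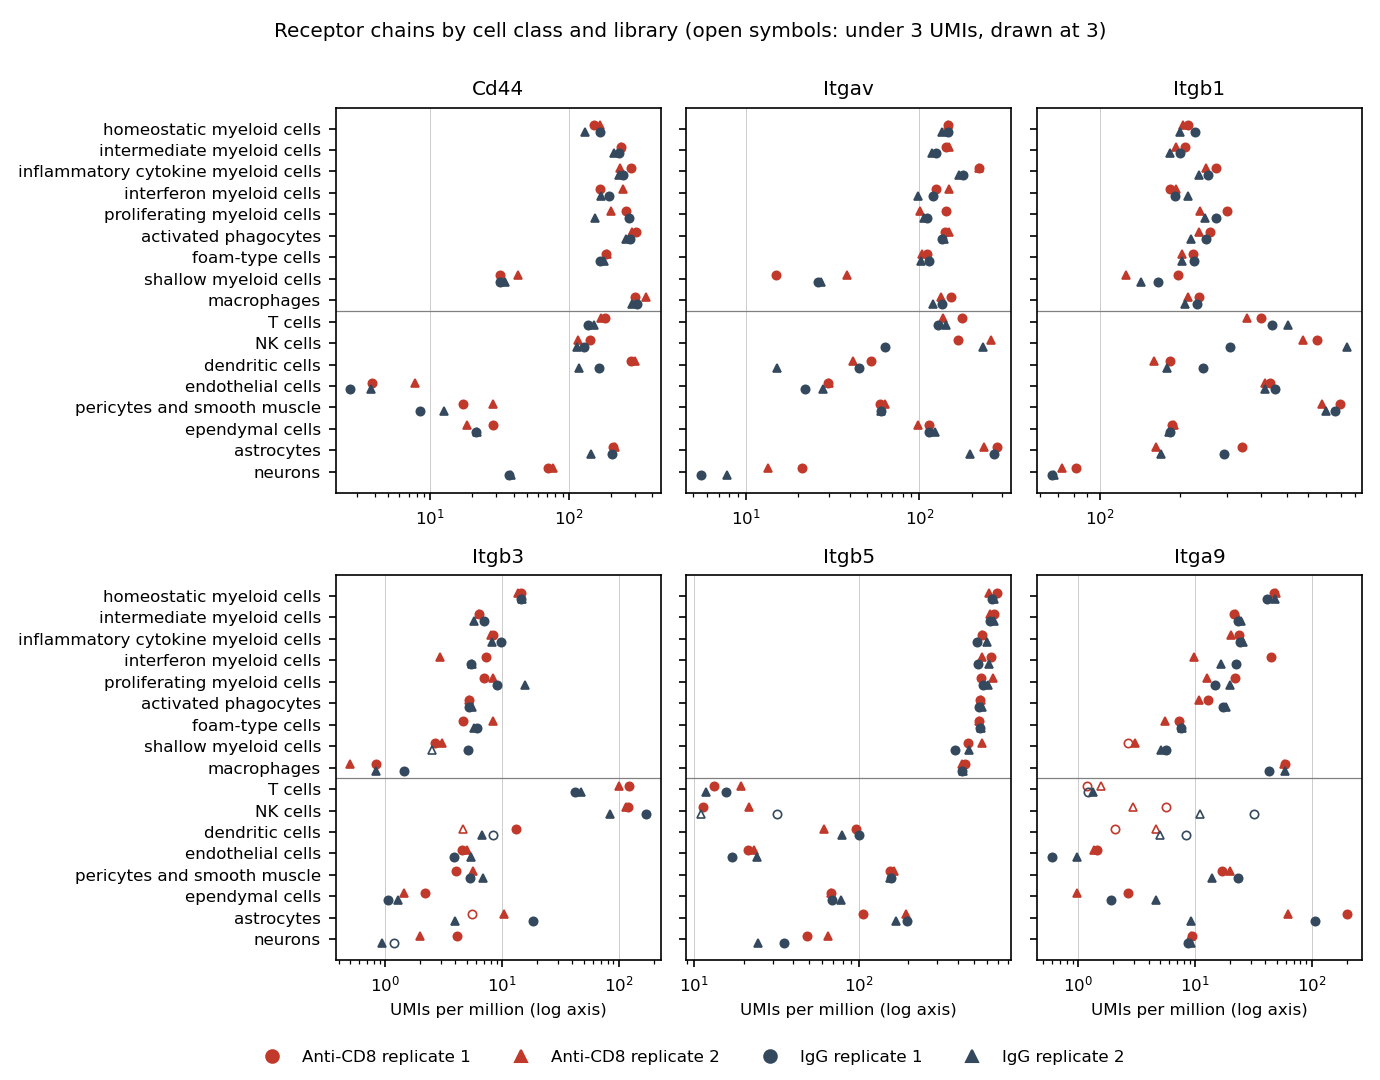
Level of each of the 6 receptor genes in each cell class or state, in CPM of the class on log axes, with a symbol for each library, open and drawn at the level of 3 UMIs where fewer were found. Itgb5 is high in all myeloid states, Itgb3 in T and NK cells, Itgb1 in pericytes and smooth muscle, and Itga9 is lower in foam-type cells than in homeostatic cells.

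An integrin needs both chains in 1 cell. With cells thinned to 2000 UMIs, Itgav together with Itgb5 was found in 19.8% of inflammatory cytokine cells in Anti-CD8 and 14.6% in IgG, 15.5% of homeostatic cells in Anti-CD8 and 15.5% in IgG, 12.2% of foam-type cells in Anti-CD8 and 11.7% in IgG and 0.522% of T cells in Anti-CD8 and 0.295% in IgG. Without thinning the mean shares were 85.8%, 70.9%, 82.9% and 3.56% in the same order. Itgav with Itgb1 was found in 11.2% of pericytes and smooth muscle in Anti-CD8 and 8.97% in IgG and 8.599% of T cells in Anti-CD8 and 10.1% in IgG. Itgav with Itgb3 was found in 2.51% of T cells in Anti-CD8 and 1.31% in IgG and 0.500% of foam-type cells in Anti-CD8 and 0.244% in IgG. Itga9 with Itgb1 was found in 3.67% of macrophages in Anti-CD8 and 2.86% in IgG and 2.80% of homeostatic cells in Anti-CD8 and 4.08% in IgG. Cd44 with Spp1 was found in 36.4% of activated phagocytes in Anti-CD8 and 33.8% in IgG, against 0.326% of endothelial cells in Anti-CD8 and 0% in IgG. With thinning, a UMI of any of the 6 receptor genes was found in a mean of 88.0% of myeloid cells and 71.5% of T cells. The same mean was 60.6% for endothelial cells and 18.3% for neurons, but 9.21% for neurons with at most 3 UMIs of the microglia markers.

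Of 102 tests of the 7 genes over 16 classes and states, edgeR called 2, with 16 at an unadjusted p under 0.05, and DESeq2 called 2. Among all genes, those at an unadjusted edgeR p under 0.05 ran from 330 of 14266 in ependymal cells to 1243 of 10336 in T cells. In neurons they were 1420 of 13970. Itgb3 was tested in 10 of the classes and Itga9 in 12, since too few of their UMIs were found in the rest, and the other 5 genes in all. The calls were Itgb3 in T cells and Cd44 in neurons. Of all genes, 0.00701% were called in ependymal cells, 0.00807% in pericytes and smooth muscle, and 0% in astrocytes, dendritic cells and endothelial cells alike. The log2 fold of Cd44 was above 0 in 16 of 16 classes, with values from 0.06 to 0.16 over the myeloid states. Itgb5 was above 0 in 6 of 16 and Itgb1 in 7 of 16. Classes of a library share its cells' preparation, so these counts are a description.

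**Figure D4:**
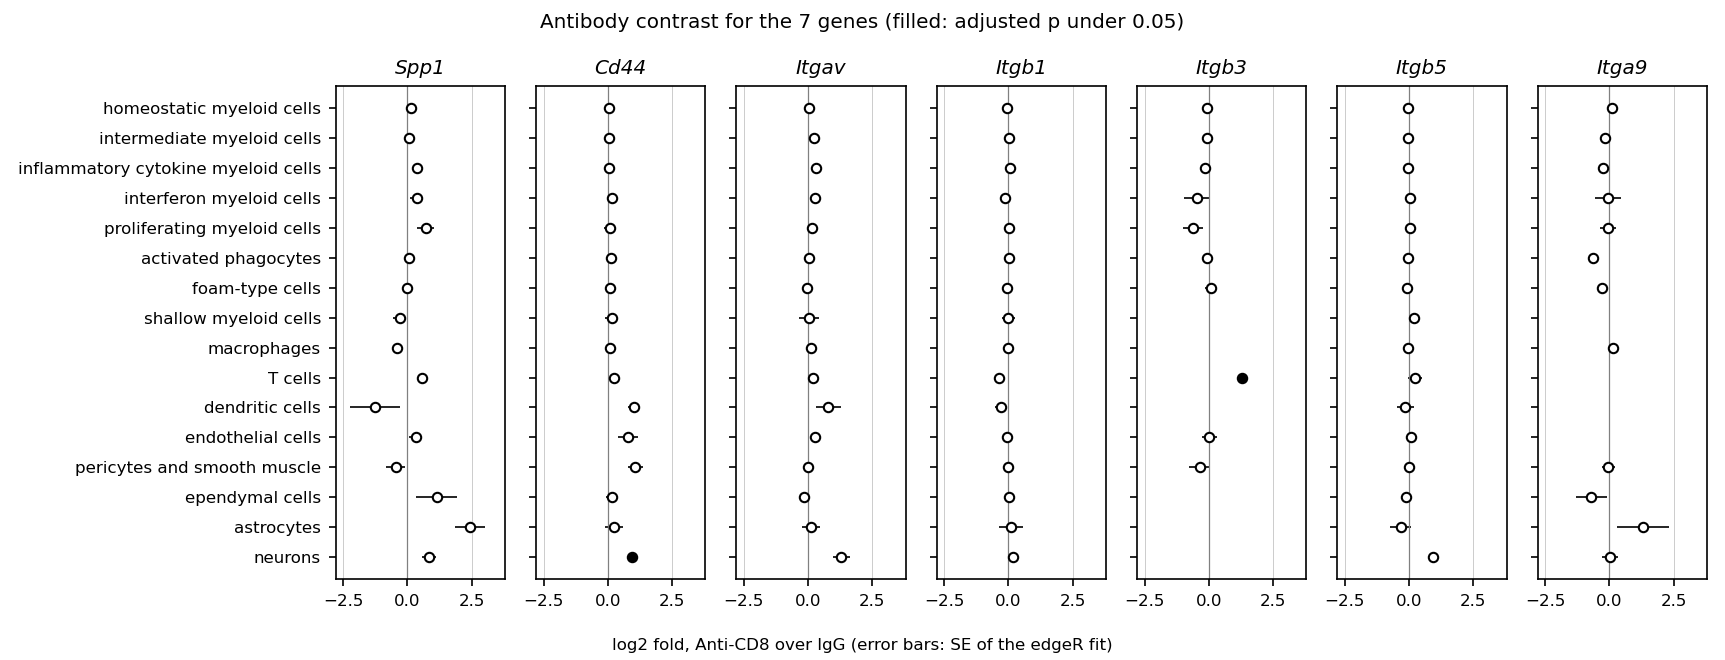
Log2 fold, Anti-CD8 over IgG, of the 7 genes in each class or state tested, with SE bars from the edgeR fit and filled points at an adjusted p under 0.05. The filled points are Itgb3 in T cells and Cd44 in neurons.

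Itgb3 rose in T cells under the CD8 antibody. It had 123 and 100.01 CPM in Anti-CD8, against 42.1 and 47.2 in IgG, with no overlap between the groups. The log2 fold was 1.29, SE 0.15, edgeR adjusted p = 0.0049, in a class where 1.13% of 10336 genes were called. The fold in T cells minus that in homeostatic cells was 1.32 on the log2 scale (SE 0.19, edgeR adjusted p = 1.9e-05, with 1.04% of 15014 genes called). With T cells thinned to 2000 UMIs, Itgb3 was found in 18.9% (15.2% to 23.2%) and 13.4% (9.45% to 18.2%) of cells in Anti-CD8, against 7.01% (4.497% to 10.3%) and 7.57% (5.72% to 9.79%) in IgG, where brackets give exact 95% binomial intervals that cover counting error only. Macrophages, which nearly lack Itgb3, had 0.115% in Anti-CD8 and 0% in IgG by the same measure.

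The call held whichever library was left out, with log2 folds of 1.13 to 1.42. The number of T cells with a CD8 UMI moved with the antibody too, and its part in the rise was not tested. T cells with a UMI of Cd8a or Cd8b1 numbered 151 and 91 in Anti-CD8, against 276 and 496 in IgG, and those without numbered 269 and 184 in Anti-CD8, against 55 and 227 in IgG. Itgb3 stood at 43.4 and 27.3 in Anti-CD8, against 29.9 and 19.5 in IgG in the cells with a CD8 UMI (log2 fold 0.60, SE 0.32, edgeR adjusted p = 0.792) and at 185 and 142 in Anti-CD8, against 116 and 125 in IgG in the cells without (log2 fold 0.43, SE 0.19, edgeR adjusted p = 1.00). Within each library the cells without a CD8 UMI had the higher level. The cluster led by Trdc, Icos and Il17a had 188 and 211 in Anti-CD8, against 157 and 164 in IgG (log2 fold 0.33, SE 0.23, edgeR adjusted p = 1.00), and the cluster led by Themis had 102 and 59.9 in Anti-CD8, against 34.9 and 35.5 in IgG (log2 fold 1.20, SE 0.23, edgeR adjusted p = 0.0913). Itgb3 passed in no split of the T cells, while the share of all genes called was 0.0109% with and 0% without a CD8 UMI, 0.143% in the Themis cluster and 0% in the Trdc cluster. These splits were chosen after seeing the data.

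**Figure D5:**
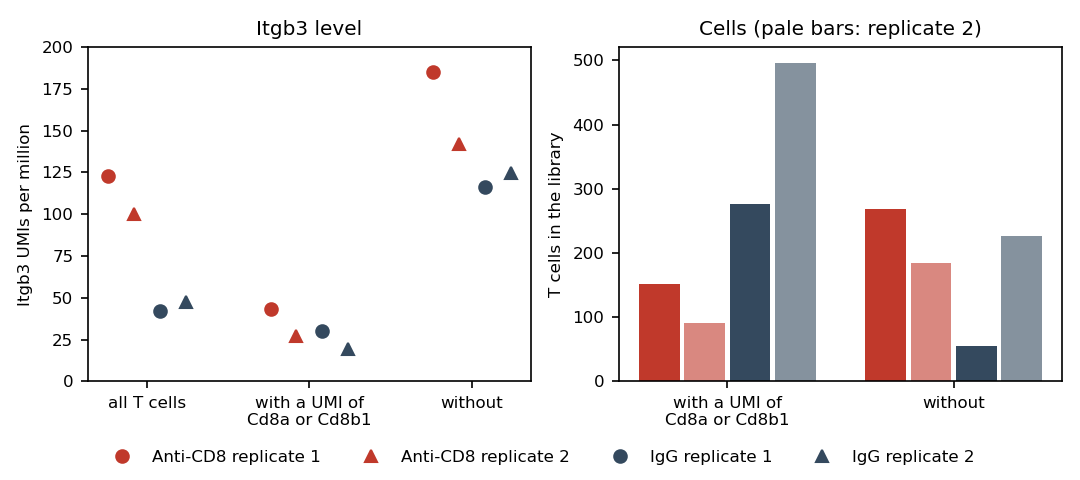
Itgb3 in all T cells and in T cells with or without a UMI of Cd8a or Cd8b1, in CPM with a symbol for each library (left), and the number of such cells in each library as bars (right). Anti-CD8 libraries lie above IgG libraries over all T cells, and T cells without a CD8 UMI lie above those with one.

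Cd44 rose in neurons, at 71.2 and 77.3 CPM in Anti-CD8, against 37.1 and 38.1 in IgG, with no overlap. The log2 fold was 0.96, SE 0.17, edgeR adjusted p = 0.0343, in a class where 0.816% of 13970 genes were called. Microglia markers in the same neurons summed to 367 and 455 in Anti-CD8, against 194 and 220.2 in IgG, with none of 10 at 0, and macrophage markers to 42.4 and 59.9 in Anti-CD8, against 15.4 and 34.1 in IgG, with Chil3 at 0 among 12. In neurons with at most 3 UMIs of the microglia markers, Cd44 stood at 31.3 and 26.1 in Anti-CD8, against 16.3 and 21.9 in IgG (log2 fold 0.52, SE 0.26, edgeR adjusted p = 0.92, with 0.273% of all genes called), and the markers summed to 55.6 and 73.3 in Anti-CD8, against 56.1 and 48.0 in IgG. The call was lost when Anti-CD8 replicate 1 was left out (1.04, edgeR adjusted p = 0.0995) and likewise for Anti-CD8 replicate 2 (0.86, edgeR adjusted p = 0.109). Without removal of doublets it was lost as well (0.94, adjusted p = 0.0993 from edgeR). All 6 members tested in neurons had a log2 fold above 0, among them Itgav (1.30, SE 0.33, edgeR adjusted p = 0.117) and Itgb5 (0.94, SE 0.23, edgeR adjusted p = 0.0934), which did not pass. The Cd44 fold in neurons minus that in homeostatic cells was 0.82 on the log2 scale (SE 0.20, edgeR adjusted p = 0.0104, with 1.8% of 18326 genes called), and the fold in macrophages minus that in neurons was -0.86 on the log2 scale (SE 0.23, edgeR adjusted p = 0.0238, with 1.92% of 16728 genes called). Neither difference passed without doublet removal (0.79, edgeR adjusted p = 0.224, and -0.86, edgeR adjusted p = 0.235).

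Other receptor values separated the groups without passing. Such a separation has an exact permutation p of 0.333 with 2 libraries a group, and how many of all genes separate was not counted. Itga9 in activated phagocytes had 12.9 and 10.8 in Anti-CD8, against 17.3 and 18.4 in IgG (log2 fold -0.63, SE 0.12, edgeR adjusted p = 0.116), and its fold passed without IgG replicate 1 (-0.69, edgeR adjusted p = 7.6e-04), without IgG replicate 2 (-0.58, edgeR adjusted p = 0.0116) and without Anti-CD8 replicate 1 (-0.78, edgeR adjusted p = 1.2e-04), though not with Anti-CD8 replicate 2 left out (-0.49, edgeR adjusted p = 0.0605). It was smaller with cells clustered at a finer resolution (-0.31, edgeR adjusted p = 0.851) or with the 7 genes included (-0.35, edgeR adjusted p = 0.876). Its fold there minus that in homeostatic cells was -0.73 on the log2 scale (SE 0.13, edgeR adjusted p = 0.0981, with 0.033% of 15156 genes called). Itgav in inflammatory cytokine cells had 219 and 219.9 in Anti-CD8, against 177 and 168 in IgG (log2 fold 0.31, SE 0.07, edgeR adjusted p = 0.33), and in intermediate cells 142 and 148 in Anti-CD8, against 124 and 118 in IgG (log2 fold 0.21, SE 0.05, edgeR adjusted p = 0.203). Itgav over all myeloid cells had 142 and 145 in Anti-CD8, against 128 and 126 in IgG (log2 fold 0.13, SE 0.04, edgeR adjusted p = 0.576). Itgb1 in T cells had 401 and 356 in Anti-CD8, against 442 and 504 in IgG (log2 fold -0.35, SE 0.12, edgeR adjusted p = 0.229). Cd44 in dendritic cells, with 92 and 53 cells in Anti-CD8, against 23 and 50 in IgG, had 279.9 and 299 in Anti-CD8, against 165 and 119 in IgG (log2 fold 1.02, SE 0.23, edgeR adjusted p = 0.631). Cd44 in pericytes and smooth muscle had 17.3 and 28.5 in Anti-CD8, against 8.41 and 12.7 in IgG (log2 fold 1.07, SE 0.30, edgeR adjusted p = 0.911), beside microglia markers at 326 and 513 in Anti-CD8, against 378 and 398 in IgG, and the fold was 0.059 without doublet removal.

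Related genes were read from lists. Of 21 other integrin chains, 13 were tested in T cells, and 2 rose and 0 fell, with a median log2 fold of 0.05 (all genes -0.01). Of all genes in T cells 1.13% were called, and in each split of the T cells 0 of these chains rose. The part of the changed number of T cells with a CD8 UMI was not tested. Itga3, the α3 chain, had 9.14 and 8.38 in Anti-CD8, against 1.60 and 1.15 in IgG (log2 fold 2.69, SE 0.46, edgeR adjusted p = 0.0246). In the IgG libraries 3 UMIs stood for 1.20 and 0.573 CPM, so those values rest on few UMIs. Itgb7, the β7 chain of lymphocyte homing integrins, had 169.7 and 168 in Anti-CD8, against 113 and 101 in IgG (log2 fold 0.63, SE 0.12, edgeR adjusted p = 0.0447). In foam-type cells 0 of 8 rose and 0 fell, with a median of 0.03 (all genes 0.00).

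Of 19 other ligands of these receptors, 12 were tested in intermediate cells, where 1 rose and 0 fell, with a median log2 fold of -0.11 (all genes -0.0010). Of all genes in this class 0.144% were called. The gene that rose was Vcam1, an adhesion molecule, with 119 and 115 in Anti-CD8, against 89.5 and 80.4 in IgG (log2 fold 0.41, SE 0.06, edgeR adjusted p = 0.043). In foam-type cells Vcam1 had a log2 fold of 0.43, SE 0.14, edgeR adjusted p = 0.532, and in activated phagocytes 0.46, SE 0.11, edgeR adjusted p = 0.236. Fn1, fibronectin, stood at 601 and 540.1 in Anti-CD8, against 469 and 592 in IgG in activated phagocytes. Vtn, vitronectin, stood at 3980.3 and 2868 in Anti-CD8, against 3233 and 3376 in IgG in pericytes and smooth muscle, and the groups overlapped for both.

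Of 12 genes that process or modify osteopontin, 7 were tested in foam-type cells, where 0 rose and 0 fell, with a median of -0.07 (all genes 0.00). Mmp12, which followed Spp1 over classes, had a log2 fold of 0.72, SE 0.12, edgeR adjusted p = 0.126 in inflammatory cytokine cells. Of 12 transcription factors listed as regulators of Spp1, 10 were tested in foam-type cells, and 0 rose and 0 fell. Runx1, a RUNX factor, stood at 987 and 1096 in Anti-CD8, against 872 and 938 in IgG in homeostatic cells and at 435 and 495 in Anti-CD8, against 427 and 430.1 in IgG in foam-type cells. Of 19 genes of integrin activation and signalling, 17 were tested in neurons, and 1 rose and 0 fell, in a class where 0.816% of all genes were called. That gene was Msn, moesin, which links CD44 to actin, with 96.4 and 83.5 in Anti-CD8, against 34.0 and 45.2 in IgG (log2 fold 1.14, SE 0.18, edgeR adjusted p = 0.0313). Runx1 also rose in neurons, with 56.6 and 79.9 in Anti-CD8, against 19.7 and 29.7 in IgG (log2 fold 1.42, SE 0.24, edgeR adjusted p = 0.0343), beside the microglia marker values given above. In neurons with at most 3 UMIs of the microglia markers, 0 of 16 signalling genes tested rose, with a median log2 fold of -0.02 (all genes 0.01). Of the regulators, 0 of 4 tested there rose.

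Of the myeloid states, intermediate cells alone had a listed gene that passed. For 5 of the others, the listed genes with the smallest p-values are given. In homeostatic cells Vtn had 2.17 and 3.33 in Anti-CD8, against 0.892 and 0.741 in IgG (log2 fold 1.73, SE 0.36, edgeR adjusted p = 0.218), and the log2 folds of Fam20c, the kinase that phosphorylates secreted proteins, and of Itga5, the α5 chain, were 0.27 and 0.27. In macrophages Thbs1, thrombospondin, had 283 and 258 in Anti-CD8, against 181 and 199.98 in IgG (log2 fold 0.46, SE 0.09, edgeR adjusted p = 0.595), and Mfge8, a bridge between integrins and dying cells, had 82.7 and 194 in Anti-CD8, against 289.6 and 352 in IgG (log2 fold -1.25, SE 0.29, edgeR adjusted p = 0.896), while Vcam1 had a log2 fold of 0.44. In foam-type cells Itga6, the α6 chain, had 115 and 103 in Anti-CD8, against 93.8 and 85.2 in IgG (log2 fold 0.24, SE 0.07, edgeR adjusted p = 0.499), and Itgal, the αL chain of leukocyte adhesion, had 9.80 and 11.0 in Anti-CD8, against 11.9 and 15.8 in IgG (log2 fold -0.44, SE 0.15, edgeR adjusted p = 0.532). In activated phagocytes Acp5, a phosphatase that acts on osteopontin, had 2.32 and 2.76 in Anti-CD8, against 1.06 and 1.63 in IgG (log2 fold 0.87, SE 0.29, edgeR adjusted p = 0.51), and Ctsb, a lysosomal protease, had a log2 fold of -0.19. In inflammatory cytokine cells Itgb8, the β8 chain, had 6.03 and 5.27 in Anti-CD8, against 2.40 and 3.07 in IgG (log2 fold 0.95, SE 0.27, edgeR adjusted p = 0.48), and Fn1 had a log2 fold of -0.34.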

How the data were processed

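Single-cell 3′ libraries were counted by the authors with Cell Ranger 7.1.0 on GRCm39, per the submitters' processing notes, and the deposited values are raw UMI counts per gene and cell. The members and lists were chosen with earlier results of these data known. Cells needed 300 or more genes and no more than 20% of UMIs from mitochondria. Of 29453 such cells, the 1758 with the highest Scrublet doublet scores (0.8% per 1000 cells) were removed, which left 27695. Cells were clustered with scanpy 1.11.5 and Leiden (resolution 1, 15 neighbours, 30 components, 3000 variable genes). Clusters were named from marker lists. For each class, the counts of a library's cells were added up and compared by edgeR 4.0.16 (quasi-likelihood test, TMM, filterByExpr, 1 dispersion trend) wherever every library had at least 20 cells, with Benjamini-Hochberg adjustment over all genes of the class. DESeq2 1.42.0 was an alternative. The test was checked on simulated counts for foam-type and homeostatic cells. Genes most like Spp1 had at least 10 CPM in a class, on log2 levels with a pseudocount of 1. Named genes were the 7 members, listed genes that passed, at most 10 per class, and, where none passed, those with the 3 smallest p-values, given for 5 myeloid states. Exact permutation of 2 libraries against 2 cannot give a p below 0.333, so no such test was used.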

Additional observations from a re-analysis of the deposited data

Results flagged for a closer look

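The antibody's effect on members differed between classes in 9 comparisons, by a test of the difference of log2 folds (Anti-CD8 over IgG) in edgeR. More members and pairs of classes were tested, and only the comparisons that passed are listed here. Itgb3 in T cells minus homeostatic cells differed by 1.32 on the log2 scale (SE 0.19, edgeR adjusted p = 1.9e-05), among 1.04% of 15014 genes called. In neurons minus homeostatic cells, Cd44 differed by 0.82 on the log2 scale (SE 0.20, edgeR adjusted p = 0.0104), Itgav by 1.19 on the log2 scale (SE 0.30, edgeR adjusted p = 0.0133) and Itgb5 by 0.93 on the log2 scale (SE 0.23, edgeR adjusted p = 0.00925), among 1.8% of 18326 genes called. In macrophages minus neurons, Spp1 differed by -1.19 on the log2 scale (SE 0.24, edgeR adjusted p = 0.0011), Cd44 by -0.86 on the log2 scale (SE 0.23, edgeR adjusted p = 0.0238), Itgav by -1.15 on the log2 scale (SE 0.32, edgeR adjusted p = 0.0315) and Itgb5 by -0.9999 on the log2 scale (SE 0.25, edgeR adjusted p = 0.0124), among 1.92% of 16728 genes called. The comparisons with neurons share the neuron libraries, whose microglia markers were 367 and 455 in Anti-CD8, against 194 and 220.2 in IgG. Spp1 in macrophages minus T cells differed by -0.93 on the log2 scale (SE 0.14, edgeR adjusted p = 0.011), among 0.393% of 13481 genes called. Without doublet removal the Itgb3 difference still passed (1.27, edgeR adjusted p = 0.0297), while the others did not, among them Spp1 in macrophages minus neurons (-0.88, edgeR adjusted p = 0.664) and minus T cells (-0.23, edgeR adjusted p = 0.792). With the cell of most Spp1 UMIs left out of each class and library, Spp1 in macrophages minus T cells did not pass either (-0.73, edgeR adjusted p = 0.215). Leaving out a library in turn kept the calls of Itgb3 and of Spp1 in macrophages minus T cells, and each of the other 7 was lost at least once. These pairs and the top-cell alternative were chosen after seeing the data. Groups of 2 libraries are too small for a search for a library that stands apart in a group.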

How the results depend on the processing

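Replicates 1 and 2 of the groups were not shown to pair. With each group's mean subtracted from log2 levels, the deviations of same-numbered libraries correlated by -0.0349 to 0.341 over the genes of a class. Member tests called were 11 with a replicate block, 18 with no filter on low counts and 1 without doublet removal, against 2, and 3 to 10 with a library left out. The share of all genes called under each of these settings is not given here. These counts, and the calls that follow, therefore do not set the members apart from other genes. Spp1 passed in inflammatory cytokine cells with the replicate block (0.37, adjusted p = 8.3e-05) and with no filter (0.37, adjusted p = 1.7e-09). With no filter it also passed in macrophages (-0.40, adjusted p = 4.4e-04) and proliferating cells (0.71, adjusted p = 5.2e-06), as did the foam-type minus homeostatic difference (-0.18, adjusted p = 3.9e-04). Outside the myeloid lineage, Spp1 passed with the block in T cells (0.56, adjusted p = 0.0274), neurons, and pericytes and smooth muscle, and with no filter in these and in astrocytes, dendritic cells and ependymal cells. At Leiden resolution 2 the Spp1 log2 fold was -0.065 in activated phagocytes, -0.053 in homeostatic cells and 0.18 in shallow cells. Splits gave Itgb3 1.20, 0.33, 0.60 and 0.43 in parts of the T cells, Cd44 0.52 in neurons with few microglia UMIs and Spp1 -0.066 in the intermediate cluster with Il1b. Cd44 in neurons was 0.94 without doublet removal. With a library left out, which assumes that a lone library varies like the other group, the Spp1 log2 fold ranged over -0.20 to 0.42 in activated phagocytes, -0.20 to 0.19 in foam-type, -0.25 to 0.42 in homeostatic, 0.21 to 0.54 in inflammatory cytokine, -0.28 to 0.78 in interferon, -0.15 to 0.35 in intermediate, -0.65 to -0.13 in macrophage, -0.049 to 1.21 in proliferating, -0.71 to 0.23 in shallow, -0.20 to 0.19 in all myeloid and -0.14 to 0.15 in all cells. Cd44 in neurons ranged over 0.86 to 1.04 and Itgb3 in T cells over 1.13 to 1.42. The Spp1 difference ranged over -0.58 to 0.36 for foam-type minus homeostatic cells, and over -0.35 to 0.40 for activated minus homeostatic cells, where it was below 0 at the low end, with Anti-CD8 replicate 1 left out (adjusted p = 0.0491). The log2 fold of the share of intermediate cells ranged over -0.11 to 0.16, lowest with IgG replicate 2 left out (adjusted p = 0.0325) and highest with IgG replicate 1 left out (adjusted p = 0.00652). The cause was not tested. Over all alternatives, 1661 member folds or differences of folds counted as unchanged, 114 moved, 63 newly passed, 35 no longer passed and 2 reversed. A fold that passed in neither setting had moved if it shifted by over 2 SE, or by over 1 SE with a change of sign. Otherwise it counted as unchanged, so an unchanged fold may have changed sign. Itgb3 and Itga9 lacked the UMIs for a test in some classes, and 2 libraries a group limit every test.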
